A study of Sus scrofa with 4 samples.

Results

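The genes described here encode platelet-derived growth factor (PDGF) and vascular endothelial growth factor (VEGF) signals and their receptors. They were taken by name from the table of raw counts: the ligand genes PDGFA, PDGFB, PDGFC, VEGFA, VEGFB and VEGFC, and the receptor genes PDGFRA, PDGFRB, FLT1 and KDR. Of these 10 genes, 9 had a row among the 29837 named genes, and PDGFB was not analysed here. The libraries came from 2 juvenile pigs, 88R and 95R, that carry H2B-GFP at the start of LGR5 on 1 of the 2 alleles, and epidermal cells of each pig were sorted into an LGR5-high (bright GFP) and an LGR5-negative (no GFP) population. All 4 libraries thus share the transgene, dispase and trypsin treatment, removal of the dermis by hand and exclusion of dead cells with propidium iodide, and there was 1 library for each population and pig. GFP is driven by the LGR5 promoter and joined to a histone, so that its signal is diluted with each division, and cells of intermediate GFP are in neither population. The founder pigs were cloned by nuclear transfer from edited fetal fibroblasts, and it is not stated whether 88R and 95R are founders or their progeny.

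PDGFs and VEGFs are secreted dimers that act on receptor tyrosine kinases of neighbouring cells. In skin, PDGF from the epithelium acts on fibroblasts and dermal papilla cells that carry PDGFRA, and PDGFRB is typical of pericytes. VEGFA from outer root sheath keratinocytes sustains the vessels around growing follicles, where endothelial cells carry the VEGF receptors FLT1 and KDR. The comparison of the populations asks how LGR5-high follicle cells differ from other epidermal cells in these signals to dermis and vessels.

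Each library held between 30890232 and 32598670 counts. At this depth 3 counts, taken as the smallest measurable signal, corresponded to between 0.0873 and 0.105 CPM (counts relative to the library's total, after scaling between libraries by the trimmed mean of M-values, TMM). Counts of LGR5 itself were 4551 (pig 88R) and 6224 (pig 95R) in LGR5-high, against 36 and 109 in LGR5-negative. The epidermal keratin gene KRT5 had a mean of 24600 CPM in LGR5-high against 27800 CPM in LGR5-negative and was not called, while KRT1, KRT10 and KRTDAP, genes of differentiating keratinocytes, were lower in LGR5-high, with log2 fold changes of -3.56, -3.44 and -3.22. The 2 pigs were no repeat of 1 library: their counts within a population gave chi-square values per degree of freedom of 21.7 (LGR5-high) and 23.7 (LGR5-negative).

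None of the 9 PDGF and VEGF genes was called higher in LGR5-high, and 4 were called lower: the ligand gene PDGFC and the receptor genes PDGFRA, FLT1 and KDR. A gene was called where the quasi-likelihood test of edgeR, adjusted by Benjamini-Hochberg over all 15980 tested genes (the edgeR adjusted p below), gave a value under 0.05. Of all tested genes 44.7% were called, 22.7% higher and 22% lower. At an unadjusted p-value under 0.05 there was 1 higher gene, VEGFC, and neither DESeq2 nor Student's t-test called any of them higher. The 4 calls of 9 genes were thus near the share over all genes. The median log2 fold change (LGR5-high minus LGR5-negative) of the 9 genes was -0.18, against 0.02 over all tested genes, and their median absolute log2 fold change was 1.36, against 0.47. The value of 1.36 was that of VEGFC, which was not called and had at most 32 counts in any library. Of the genes with larger absolute values, all but PDGFC had at most 106 counts in any library. For 6 of the 9 genes the CPM values of the populations did not overlap, as they did not for 76.6% of all tested genes. All 9 genes passed the filter on low counts, but PDGFRA and KDR passed through their LGR5-negative libraries alone, so that for these 2 genes a difference was favoured by the filter, and VEGFC passed through both LGR5-high libraries and 1 LGR5-negative library. With the pig as a replicate block, 55.7% of all genes were called (28.5% higher and 27.2% lower), and of the 9 genes the same 4 were lower and VEGFC was higher.

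**Figure D1:**
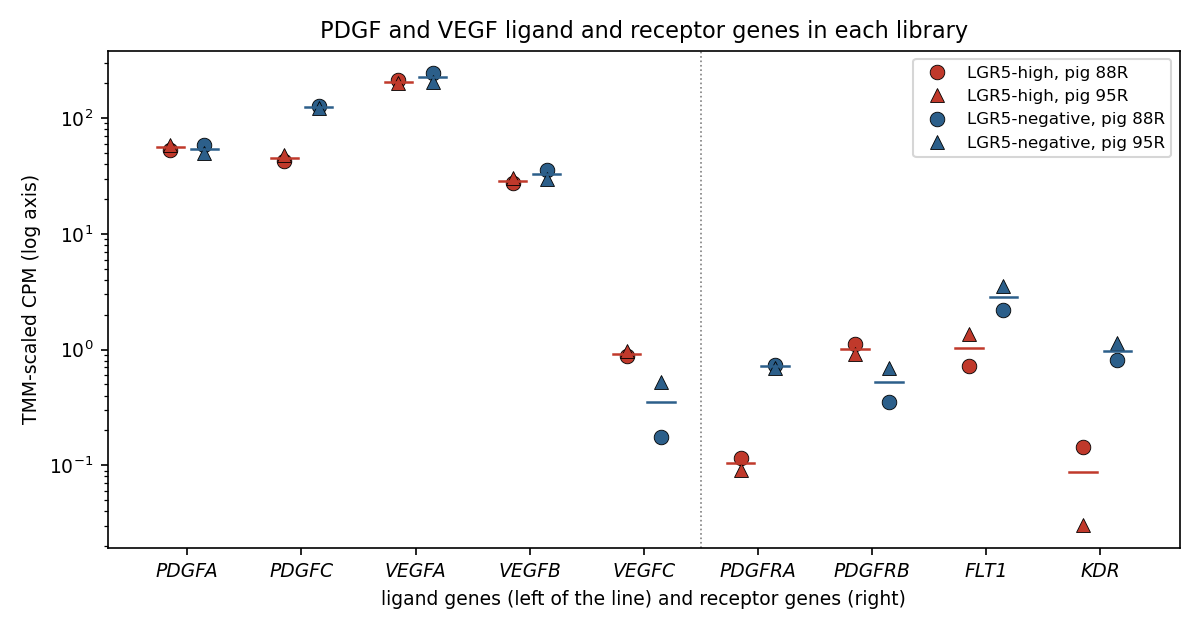
TMM-scaled CPM (log axis) of the 9 PDGF and VEGF genes in each library, with circles for pig 88R, triangles for pig 95R, red for LGR5-high, blue for LGR5-negative and a bar at each mean of 2 pigs. PDGFC, PDGFRA, FLT1 and KDR lie lower in both LGR5-high libraries, and the values of PDGFA, VEGFA and VEGFB overlap between the populations.

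Among the PDGF ligand genes, PDGFC was lower in LGR5-high while PDGFA, which encodes the main epithelial ligand of PDGFRA, did not pass the test. PDGFC had 42.7 and 48.4 CPM in LGR5-high (pigs 88R and 95R), and 127 and 122 CPM in LGR5-negative. PDGFC encodes a latent ligand of PDGFRA that must be cleaved outside the cell before it can bind. The means ± SD of both pigs were 45.6 ± 3.99 CPM in LGR5-high, against 125 ± 3.39 CPM in LGR5-negative, a 2.74-fold difference. The log2 fold change of PDGFC was -1.45 (standard error, SE, 0.094, edgeR adjusted p = 2.11e-04), with -1.57 for pig 88R and -1.34 for pig 95R. It was called under 9 of the 10 alternatives, and Student's t-test gave an adjusted p of 0.0512.

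PDGFA had 53.5 and 58.3 CPM in LGR5-high (pigs 88R and 95R), and 58.3 and 50.3 CPM in LGR5-negative. The higher population differed between the pigs, with log2 fold changes of -0.12 for pig 88R and 0.21 for pig 95R. Over both pigs the log2 fold change of PDGFA was 0.04 (SE 0.109, edgeR adjusted p = 0.773). Its 95% interval ran from -0.23 to 0.31, which corresponds to ratios between 0.854 and 1.24.

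The PDGF receptor genes had few counts in both populations. PDGFRA had 4 and 3 counts in LGR5-high (pigs 88R and 95R), against 21 and 21 counts in LGR5-negative. Both LGR5-high libraries were thus at or close to the smallest measurable signal. The LGR5-negative value was 6.33 times the LGR5-high value in pig 88R (exact 95% counting interval 2.14 to 25.4) and 7.65 times in pig 95R (2.28 to 40.1). Such intervals cover the sampling of counts alone, not the variation between libraries or pigs. Reads copied by PCR are not separate molecules, so the intervals can be too narrow even for sampling. For PDGFRA the log2 fold change was -2.74 (SE 0.476, edgeR adjusted p = 0.00626). The call depended on each LGR5-high library, with adjusted p = 0.0526 without that of pig 88R and 0.0671 without that of pig 95R, at log2 fold changes of -2.93 and -2.57. In bulk libraries, fewer cells of a type and less RNA per cell cannot be told apart.

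PDGFRB, whose product binds PDGF-B and PDGF-D, had 38 and 30 counts in LGR5-high (pigs 88R and 95R), against 10 and 21 counts in LGR5-negative. Both LGR5-high values lay above both LGR5-negative values. The log2 fold change of PDGFRB was 0.93 (SE 0.446, 95% interval -0.17 to 2.04), with 1.50 for pig 88R and 0.36 for pig 95R, and the edgeR adjusted p was 0.14. No call was made under any of the 10 alternatives, and the interval leaves room for ratios between 0.891 and 4.10.

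VEGFA was well covered by counts in both populations and was not called. It had 7320 and 6655 counts in LGR5-high (pigs 88R and 95R), against 6965 and 6204 counts in LGR5-negative. On the CPM scale these were 213 and 201 in LGR5-high against 244 and 205 in LGR5-negative. The population ranges overlapped. The log2 fold change of VEGFA, which encodes the principal growth and survival factor of endothelial cells, was -0.12 (SE 0.106, 95% interval -0.38 to 0.15, edgeR adjusted p = 0.405). This interval corresponds to ratios between 0.768 and 1.11.

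VEGFB, which encodes a ligand of FLT1, had 27.5 and 30.2 CPM in LGR5-high (pigs 88R and 95R) and 35.5 and 29.7 CPM in LGR5-negative. Its log2 fold change was -0.37 for pig 88R and 0.02 for pig 95R, and -0.18 over both (SE 0.128, 95% interval -0.49 to 0.14, edgeR adjusted p = 0.304). The direction of VEGFA and VEGFB depended on the scaling: with library size in place of TMM their log2 fold changes were 0.11 and 0.05, where the median of all genes was 0.24.

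VEGFC, which encodes the chief lymphatic growth factor and a ligand of FLT4 and KDR, had few counts. It had 30 and 32 counts in LGR5-high (pigs 88R and 95R), against 5 and 16 counts in LGR5-negative. Both LGR5-high libraries were above both LGR5-negative libraries, and the exact 95% counting intervals of the latter, 1.62 to 11.7 and 9.15 to 26.0 counts, overlapped. VEGFC had a log2 fold change of 1.36 (SE 0.545, edgeR adjusted p = 0.0907), with 1.97 for pig 88R and 0.80 for pig 95R. With the pig as a replicate block it was 1.42 and VEGFC was called higher (edgeR adjusted p = 0.0211). Without the LGR5-negative library of pig 95R it was also called, at a log2 fold change of 2.36 and an adjusted p of 0.0312. The other 8 alternatives did not call VEGFC: without the LGR5-negative library of pig 88R the log2 fold change was 0.79 (adjusted p = 0.292), and DESeq2 gave an adjusted p of 0.23.

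Of the VEGF receptor genes, FLT1 and KDR were both lower in LGR5-high. FLT1, whose product binds VEGFA, VEGFB and placental growth factor, had 25 and 45 counts in LGR5-high (pigs 88R and 95R), against 63 and 106 counts in LGR5-negative. Within each pig the LGR5-negative library held more counts, and pig 95R had more than pig 88R in both populations. On the log2 scale the fold change of FLT1 was -1.45 (SE 0.423, edgeR adjusted p = 0.0363), with -1.52 for pig 88R and -1.32 for pig 95R. FLT1 was called under 5 of the 10 alternatives. The adjusted p rose to 0.15 without the LGR5-high library of pig 88R, to 0.0502 without that of pig 95R and to 0.118 without the LGR5-negative library of pig 95R, at log2 fold changes of -1.08, -1.96 and -1.09. It was 0.0552 with library size only, and 0.201 with Student's t-test. With the replicate block the adjusted p was 6.60e-04.

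KDR, which encodes the main signalling receptor for VEGFA on endothelial cells, had 5 and 1 counts in LGR5-high (pigs 88R and 95R), against 23 and 34 counts in LGR5-negative. The LGR5-negative value was 5.55 times the LGR5-high value in pig 88R (exact 95% counting interval 2.06 to 18.7). In pig 95R, where LGR5-high held 1 count, the ratio was 37.2 with an interval of 6.24 to 1510. For the test over both pigs, KDR had a log2 fold change of -3.39 (SE 0.646, edgeR adjusted p = 0.00874). Without the LGR5-high library of pig 95R the log2 fold change was -2.69 and the call was lost (adjusted p = 0.0526), and without that of pig 88R it was -4.83.

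**Figure D2:**
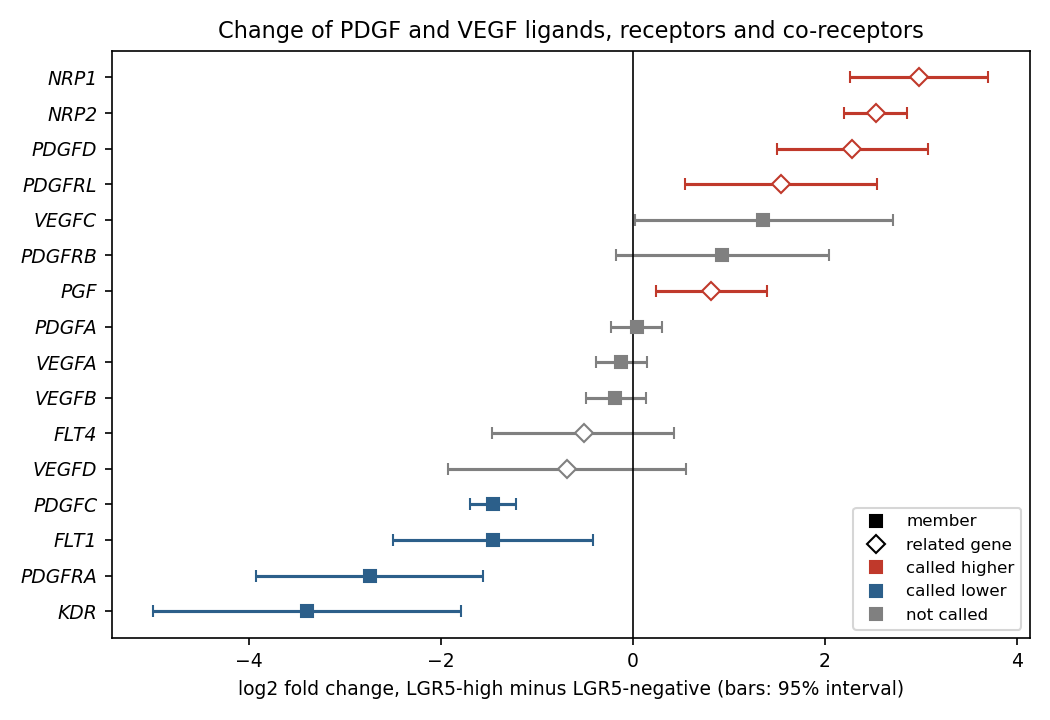
Log2 fold change (LGR5-high minus LGR5-negative) with 95% intervals for the 9 PDGF and VEGF genes (filled squares) and 7 related ligand, receptor and co-receptor genes (open diamonds), coloured by the call at an adjusted p-value under 0.05. NRP1 is at 2.98 and NRP2 at 2.53 at the top, and PDGFRA at -2.74 and KDR at -3.39 at the bottom.

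The receptor genes were read beside markers of the cells that usually carry them. Of 16 endothelial marker genes, 14 were tested, of which 2 were higher and 7 lower in LGR5-high. Over all tested genes 22.7% were higher and 22% lower, and the counts of the other marker lists can be read against the same shares. Of the 7 lower genes, CDH5, CLDN5, PLVAP and ROBO4 passed the filter on low counts through LGR5-negative alone, as KDR did. The summed level of the 16 genes was 19.1 and 21.6 CPM in LGR5-high and 31.3 and 34.5 CPM in LGR5-negative. CDH5, the cadherin of endothelial junctions, had 1 and 1 counts in LGR5-high (pigs 88R and 95R), and 17 and 21 in LGR5-negative. ROBO4, a receptor of endothelial cells, had 0 counts in both LGR5-high libraries and 10 and 11 in the LGR5-negative libraries. The blood vessel gene VWF, named after its values were seen, had 49 and 32 counts in LGR5-high and 243 and 262 in LGR5-negative, a log2 fold change of -2.84 (SE 0.261, edgeR adjusted p = 6.47e-04). PECAM1, an adhesion molecule gene of endothelial cells, had a mean of 4.36 CPM in LGR5-high against 7.65 CPM in LGR5-negative and was not called (log2 fold change -0.81, edgeR adjusted p = 0.0782). It was called lower with the pig as a replicate block (-0.85, edgeR adjusted p = 0.00215) and without the LGR5-high library of pig 95R (-1.29, edgeR adjusted p = 0.0281). The endothelial genes TIE1 and EGFL7, also named after their values were seen, rose, with log2 fold changes of 0.99 and 1.06 (edgeR adjusted p = 0.0236 and 0.0291). The part of endothelial RNA in the values of FLT1 and KDR was not tested.

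Of 11 fibroblast marker genes, 9 were tested, of which 3 were higher and 4 lower in LGR5-high. Their summed level was 257 and 478 CPM in LGR5-high and 361 and 236 CPM in LGR5-negative, so the populations overlapped. COL1A1 alone gave 142 and 331 CPM of the LGR5-high sums and 94.0 and 37.3 CPM of the LGR5-negative sums. The overlap rests on this 1 gene, and the other genes summed without it were lower in LGR5-high in both pigs. Most of that remainder was DCN, with 83.4 and 112 CPM in LGR5-high and 182 and 163 CPM in LGR5-negative. Besides COL1A1, the higher genes were FBLN1 and LOX, with log2 fold changes of 1.64 and 1.38 (edgeR adjusted p = 4.89e-04 and 0.0296). DCN, FBLN1 and LOX were named after their values were seen. LUM, a proteoglycan gene of fibroblasts, had 5 and 0 counts in LGR5-high (pigs 88R and 95R), and 47 and 31 in LGR5-negative, and it passed the filter through LGR5-negative alone. The collagen gene COL3A1 had a log2 fold change of -3.09 (SE 0.529, edgeR adjusted p = 0.00596). COL1A1, another collagen gene, was higher in LGR5-high, with a log2 fold change of 1.85 (SE 0.545, edgeR adjusted p = 0.0374) that was 0.60 for pig 88R and 3.15 for pig 95R. Its call was lost without either library of pig 95R, where the log2 fold change was 1.12 without LGR5-high and 1.32 without LGR5-negative. With all 4 libraries, COL1A1 was not called by DESeq2 (adjusted p = 0.0671) or by Student's t-test (adjusted p = 0.272). Among 7 dermal papilla marker genes only 2 were tested. HHIP, which encodes a hedgehog-binding protein, was higher in LGR5-high, with 3.15 mean CPM against 0.391 in LGR5-negative, a 7.98-fold difference (edgeR adjusted p = 0.00126), and CORIN was not called. The summed level of the 7 genes was 3.55 and 4.42 CPM in LGR5-high and 1.37 and 1.72 CPM in LGR5-negative, with no overlap. HHIP alone gave 2.79 and 3.51 CPM of the LGR5-high sums, against 0.351 and 0.43 CPM in LGR5-negative. The direction of the sum thus rests on this 1 gene. The other genes summed without it were lower in LGR5-high, but they had at most 23 counts in any library. RSPO3, not tested, had 1 and 1 counts in LGR5-high and 6 and 13 in LGR5-negative. SOX2, also not tested, went the other way, with 3 and 5 counts against 0 and 0. Both were named after their values were seen. The part of fibroblast and dermal papilla RNA in the values of PDGFRA was not tested.

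Of 9 marker genes of pericytes and smooth muscle, 6 were tested, of which 5 were higher and 1 was lower in LGR5-high. Their summed level was 657 and 686 CPM in LGR5-high and 673 and 762 CPM in LGR5-negative. Most of it came from NOTCH3, the 1 lower gene, and nearly all the rest from CSPG4. Which cells this RNA came from was not tested. CSPG4, named after its values were seen, was higher, with 279 mean CPM in LGR5-high against 114 in LGR5-negative. CNN1 and ACTA2, contractile genes of smooth muscle, rose, with log2 fold changes of 3.70 and 2.08 (edgeR adjusted p = 3.88e-04 and 0.00335). DES, the intermediate filament gene of muscle, was named after its values were seen and had 0 and 2 counts in LGR5-high (pigs 88R and 95R), and 1 and 0 in LGR5-negative. The part of such cells in the values of PDGFRB was not tested. All 5 tested leukocyte markers were lower in LGR5-high, of which CD207 and PTPRC passed the filter through LGR5-negative alone. Of 6 melanocyte markers 4 were lower, and of 3 tested Schwann cell markers 1 was higher and 1 lower.

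**Figure D3:**
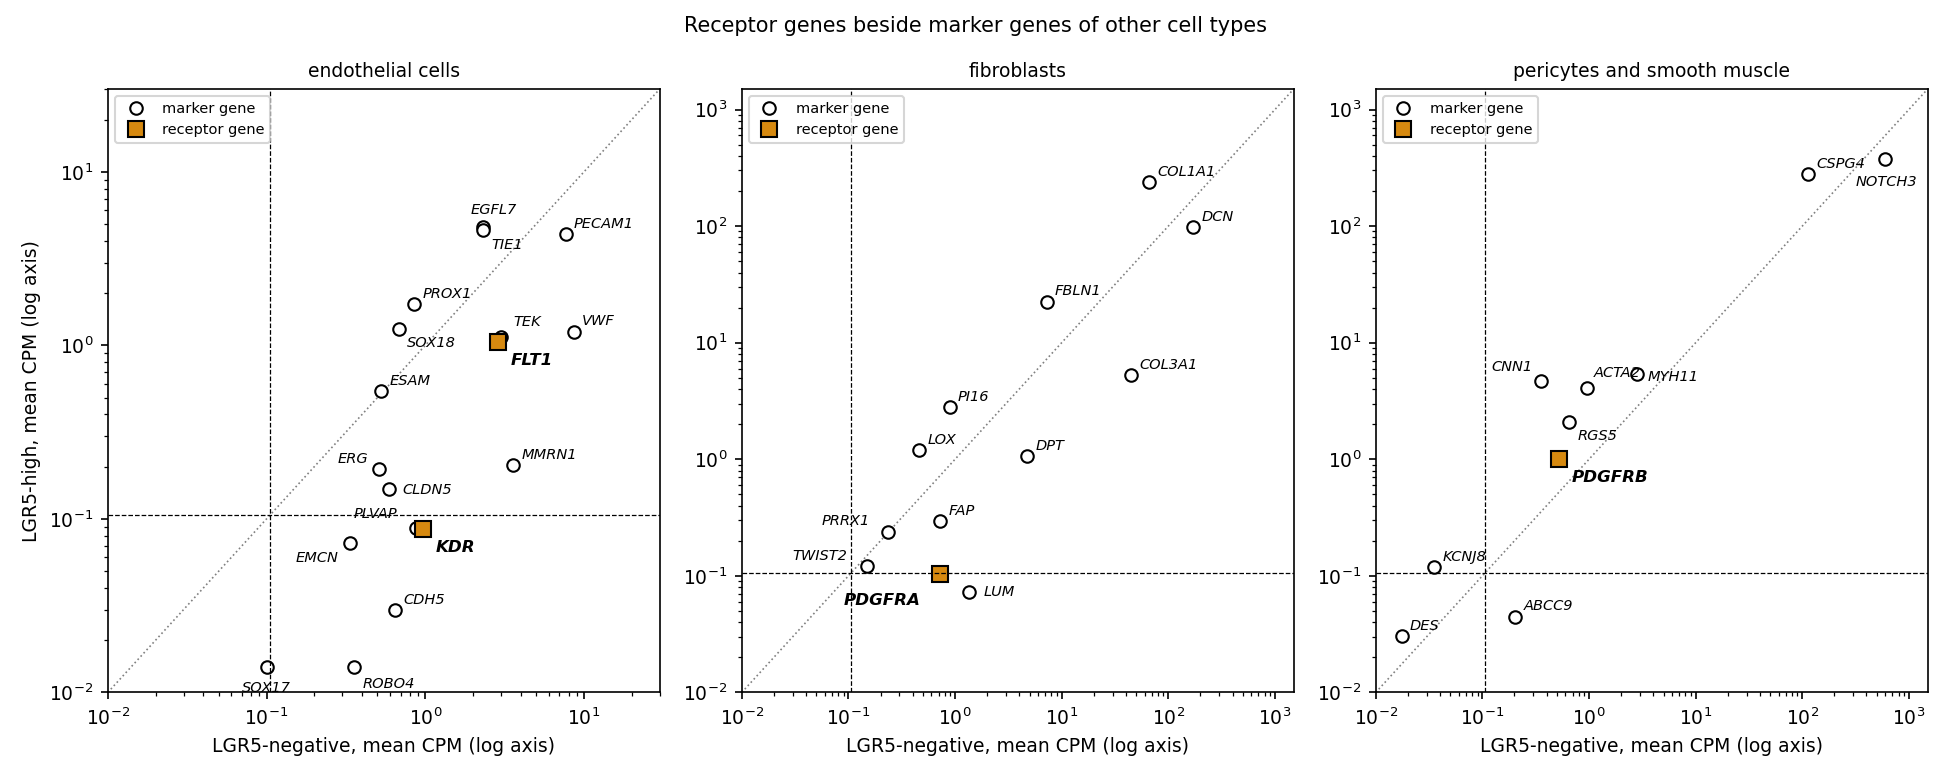
Mean CPM in LGR5-high against mean CPM in LGR5-negative (both log axes) for the receptor genes (squares) and for marker genes of endothelial cells, of fibroblasts, and of pericytes and smooth muscle (circles), with the dotted line at equality, dashed lines at 0.105 CPM, the value of 3 counts in the library where it is highest, and means of 0 drawn near the axis. FLT1 and KDR lie below equality among most endothelial markers, and PDGFRA lies below it at the dashed line. PDGFRB lies above it with CNN1, ACTA2, RGS5, MYH11 and CSPG4, while NOTCH3 and ABCC9 lie below it.

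Most of the other ligand, receptor and co-receptor genes of these families were higher in LGR5-high. This list held PDGFD, PDGFRL, VEGFD (sought also under its older symbol, FIGF), PGF, FLT4, NRP1 and NRP2, of which 5 were higher, 0 were lower and 2 were not called, where 22.7% of all tested genes were higher. The median log2 fold change was 1.54, against 0.02 over all tested genes. This list, like the others, was chosen with earlier results of these data known, so its share is no test of the families. NRP1, which encodes the co-receptor neuropilin-1 for VEGFA, had 2639 and 1877 counts in LGR5-high (pigs 88R and 95R), and 307 and 186 in LGR5-negative. Its log2 fold change was 2.98 (SE 0.292, edgeR adjusted p = 8.08e-04). NRP2, which encodes the neuropilin that binds VEGFC and also class 3 semaphorins, had 3388 and 2692 counts in LGR5-high and 418 and 497 in LGR5-negative, a log2 fold change of 2.53 (SE 0.134, edgeR adjusted p = 1.24e-04). The libraries of the populations did not overlap for either neuropilin, and Student's t-test was the 1 alternative of 10 that did not call them.

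PDGFD, which encodes a latent ligand of PDGFRB, had 685 and 642 counts in LGR5-high (pigs 88R and 95R), against 76 and 163 counts in LGR5-negative. PDGFD was thus higher and PDGFC lower in LGR5-high, although the encoded ligands share the same domains. PDGFD had a log2 fold change of 2.28 (SE 0.318, edgeR adjusted p = 0.00286), with 2.87 for pig 88R and 1.84 for pig 95R. PGF, which encodes placental growth factor, a ligand of FLT1, had 425 and 307 counts in LGR5-high and 201 and 158 in LGR5-negative. The log2 fold change of PGF was 0.82 (SE 0.233, edgeR adjusted p = 0.0337). The call of PGF was lost without the LGR5-high library of pig 88R and without the LGR5-negative library of pig 95R, with log2 fold changes of 0.59 and 0.61. With all 4 libraries, Student's t-test did not call PGF (adjusted p = 0.201).

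PDGFRL, which encodes a secreted protein similar to the outer part of a PDGF receptor, had 92 and 101 counts in LGR5-high against 18 and 40 in LGR5-negative. Its log2 fold change was 1.54 (SE 0.402, edgeR adjusted p = 0.0254). The adjusted p of PDGFRL was 0.0777 without the LGR5-high library of pig 88R, 0.116 without that of pig 95R and 0.0523 without the LGR5-negative library of pig 88R, with log2 fold changes of 1.63, 1.45 and 1.11. The receptor gene FLT4, of lymphatic endothelium, had 54 and 53 counts in LGR5-high and 44 and 90 in LGR5-negative and was not called (log2 fold change -0.51, 95% interval -1.46 to 0.43). VEGFD had between 8 and 17 counts in the 4 libraries and was not called (log2 fold change -0.68, 95% interval -1.92 to 0.56).

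The other related genes moved in both directions. The counts of each list below can be read against the 22.7% of all tested genes that were higher and the 22% that were lower. Of the 9 genes for enzymes and cofactors that release or activate the ligands, 3 were higher and 3 lower in LGR5-high. PCSK5, a proprotein convertase, rose from 0.524 to 8.73 mean CPM, a log2 fold change of 4.04 (SE 0.342). ADAMTS3, the protease that activates VEGFC, had a log2 fold change of 2.52 (SE 0.234). PLAU, the urokinase gene, fell, with 37.7 mean CPM in LGR5-high and 165 in LGR5-negative (log2 fold change -2.13, SE 0.152). ST14, the matriptase gene, had a log2 fold change of -0.74. The edgeR adjusted p-values of PCSK5, ADAMTS3, PLAU and ST14 were 4.97e-04, 6.67e-04, 2.85e-04 and 0.00208.

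VEGFA is a known target of the hypoxia-inducible factors. Among the 8 tested of 9 hypoxia regulator genes, 1 was higher, 2 were lower and 5 were not called. HIF1A, the oxygen-regulated subunit gene, had 316 mean CPM in LGR5-high and 236 in LGR5-negative (log2 fold change 0.42, SE 0.0738, edgeR adjusted p = 0.00639). Its partner gene ARNT was lower, at -0.55 on the log2 scale, and EGLN1, which encodes an oxygen sensor that marks HIF1A for degradation, was lower at -1.59 (edgeR adjusted p = 0.0057 and 0.00122). Of 12 other hypoxia target genes, 1 was higher and 6 were lower, with a median log2 fold change of -0.27. The glycolytic regulator gene PFKFB3 had 95.9 mean CPM in LGR5-high and 617 in LGR5-negative (log2 fold change -2.68), and the transcription factor gene BHLHE40 and the carbonic anhydrase gene CA9 had log2 fold changes of -1.27 and -1.16. DDIT4, an inhibitor of mTORC1 signalling, was the higher one, at 1.98. The other 5 of the 12 hypoxia target genes were not called. Of these, ADM, BNIP3 and SLC2A1, named after their values were seen, had log2 fold changes of 0.01, -0.03 and 0.16.

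Of 12 genes for angiopoietins and other vessel signals, 11 were tested, of which 2 were higher and 7 lower in LGR5-high, with a median log2 fold change of -0.95. Of the 7 lower genes, ANGPT2 passed the filter on low counts through LGR5-negative alone. The 2 higher genes encode the thrombospondins THBS1 and THBS2, matrix proteins that inhibit angiogenesis. THBS2 had 2590 mean CPM in LGR5-high and 62.4 in LGR5-negative, a log2 fold change of 5.37 (SE 0.33), and THBS1 had 1500 and 412 mean CPM, a log2 fold change of 1.87 (SE 0.233). SERPINF1, which encodes another inhibitor of angiogenesis, PEDF, fell, with 15 and 7 counts in LGR5-high (pigs 88R and 95R), and 69 and 118 in LGR5-negative. APLN, the gene of the vessel-active peptide apelin, had 2.22 mean CPM in LGR5-high and 9.91 in LGR5-negative, a log2 fold change of -2.16. The edgeR adjusted p-values of THBS2, THBS1, SERPINF1 and APLN were 1.86e-04, 0.00188, 0.00321 and 0.00394.

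Among 15 genes that act downstream of the receptors, 4 were higher, 4 were lower and 7 were not called. SHB, an adaptor of the PDGF and VEGF receptors, had 64.1 mean CPM in LGR5-high and 17.3 in LGR5-negative, a log2 fold change of 1.88 (SE 0.165). The adaptor gene NCK2 was higher at 0.84, the adaptor gene SHC1 was lower at -1.09, and PTPN1, which encodes a phosphatase of receptor tyrosine kinases, was lower at -0.88. The edgeR adjusted p-values of SHB, NCK2, SHC1 and PTPN1 were 5.48e-04, 0.00219, 2.87e-04 and 5.02e-04. These adaptors serve many receptors besides those of PDGF and VEGF. Over the 62 related genes tested, 16 were higher and 22 lower, and the median log2 fold change was -0.17. These shares can be read against the 22.7% of all genes that were higher and the 22% that were lower.

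**Figure D4:**
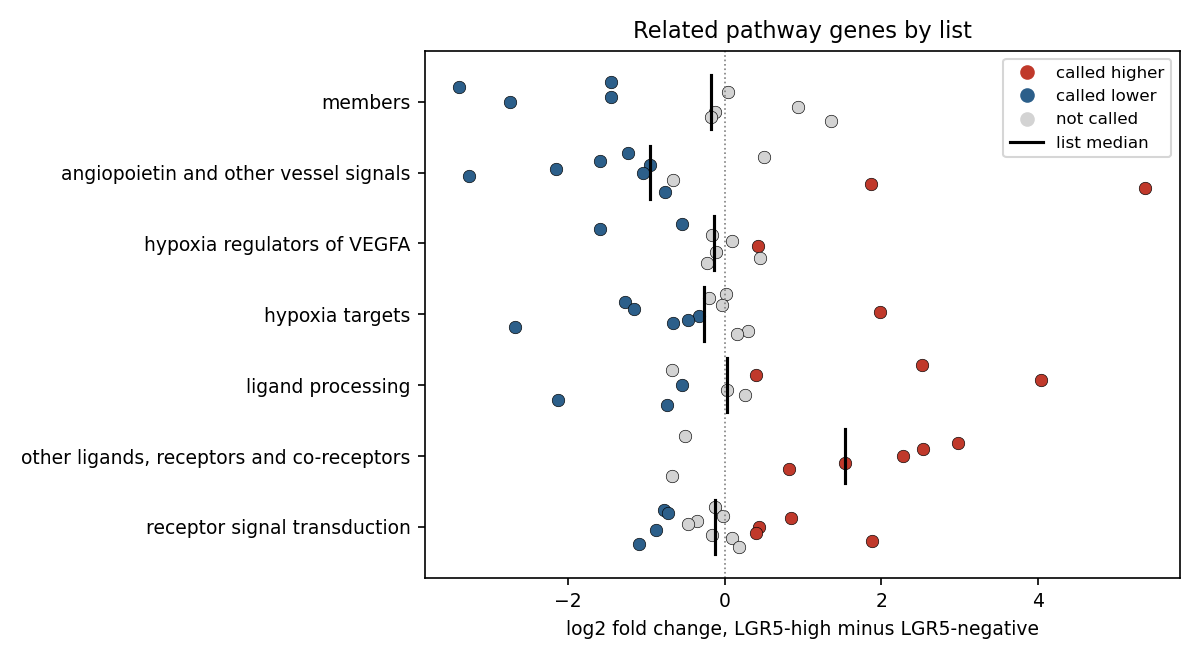
Log2 fold change (LGR5-high minus LGR5-negative) of the 9 PDGF and VEGF genes (members) and of 62 related genes by list, with 1 point per gene coloured by the call at an adjusted p-value under 0.05 and a bar at the list median. The list of other ligands, receptors and co-receptors has its median at 1.54, and the vessel signals reach from SERPINF1 at -3.27 to THBS2 at 5.37.

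The genes whose values over the 4 libraries were closest in shape to PDGFA, by the distance of log2 CPM centred on each gene's mean, were TOR2A, ARFIP2 and UBE2F, with distances of 0.0272, 0.0319 and 0.0335. Those closest to VEGFA were CASKIN1, SSR4 and SLC39A5, with distances of 0.0192, 0.0223 and 0.0251. These distances rest on 4 libraries and 15979 genes compared, and describe genes with small differences between the populations. In the RefSeq annotation of Sscrofa11.1, PDGFRA and KDR lie on either side of KIT, another receptor tyrosine kinase gene. Both flanking genes were lower in LGR5-high, and KIT, with 69 and 52 counts in LGR5-high (pigs 88R and 95R) and 49 and 64 in LGR5-negative, was not called (log2 fold change -0.10, 95% interval -0.83 to 0.64). KIT was looked up after the values of its neighbours had been seen.

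**Figure D5:**
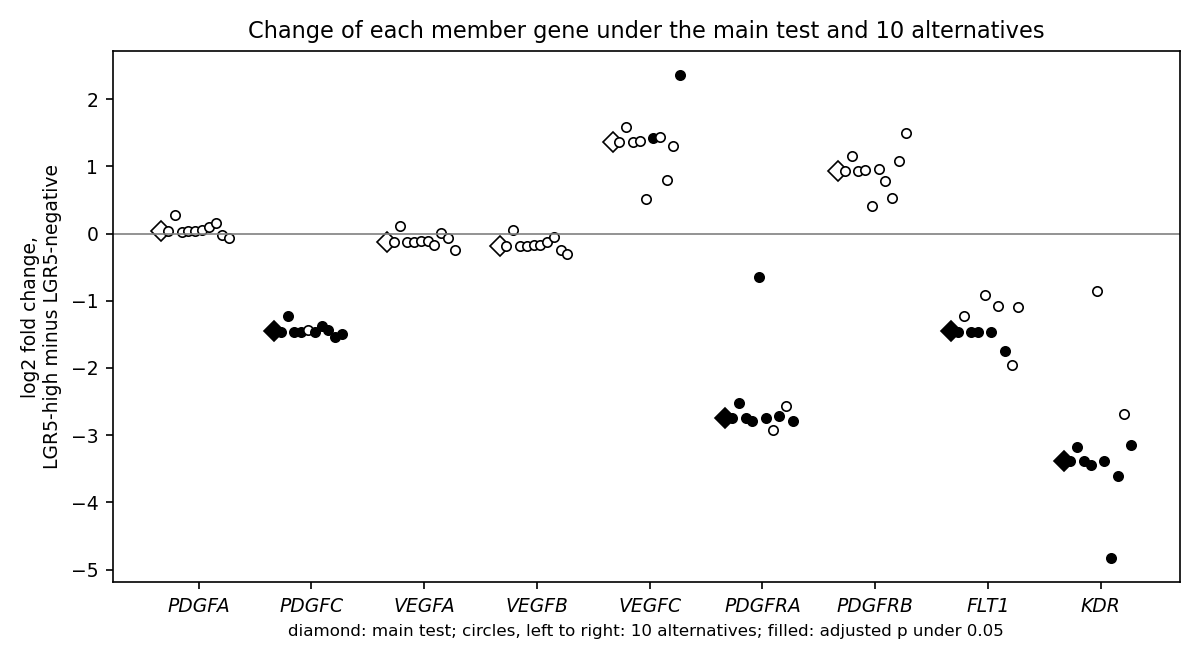
Log2 fold change (LGR5-high minus LGR5-negative) of each of the 9 genes under the main test (diamond) and 10 alternatives (circles, from left to right: DESeq2 size factors, library size only, all genes with at least 1 count, DESeq2, Student's t-test, the replicate block, and without LGR5-high 88R, LGR5-negative 88R, LGR5-high 95R and LGR5-negative 95R), filled where the adjusted p-value was under 0.05. PDGFC, PDGFRA, FLT1 and KDR stay below 0 throughout, and PDGFA, VEGFA and VEGFB stay between -0.31 and 0.27.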

How the data were processed

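RNA sequencing of LGR5-high and LGR5-negative epidermal cells from 2 pigs was analysed, with 1 library for each population and pig. The values the authors deposited are raw counts for each gene symbol, not normalized, from poly(A)-selected RNA. The submitters' processing notes name Trimmomatic 0.36, STAR 2.5.2b and featureCounts of Subread 1.5.2, and the genome build, annotation and strand setting are not given in the sources used here, so antisense and overlapping genes cannot be separated. All 29837 named genes matched a symbol of RefSeq Sscrofa11.1, used for names and gene order. The 1 entry without a name (between 0.36% and 0.626% of counts) was left out.

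Counts were tested in R 4.3.3 with edgeR 4.0.16: filterByExpr (minimum count 10, minimum total 15), TMM scaling and a 2-sided quasi-likelihood test with population as the only term. The standard error of a log2 fold change is its size divided by the square root of the F statistic. A prior count of 2 was used for log2 fold changes of single pigs and 0.125 in the test. CPM values are scaled by TMM. Levels were compared between populations, not between genes, since transcript lengths were not used. Same-numbered libraries come from the same pig, and they deviated together from the population means (correlation 0.37 over tested genes). The alternatives were scaling by DESeq2 size factors or by library size only, no filter beyond 1 count in any library, DESeq2 1.42.0, the Student's t-test of the study's methods (on log2 of CPM plus 1), the pig as a replicate block, and each library left out in turn. A library left out leaves 1 library in its population, whose spread is then taken from the other.

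The named genes are the 9 genes, the related ligands, receptors and co-receptors, up to 4 called genes of largest change in each other related list, and in marker lists the gene of highest mean CPM over the 4 libraries (a rule for naming, not a comparison of levels) and up to 2 called genes of largest change. The genes and lists were chosen with earlier results of these data known. Figures used matplotlib 3.10.9.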

Additional observations from a re-analysis of the deposited data

How the results depend on the processing

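Over the 10 alternatives, PDGFC, PDGFRA, FLT1 and KDR kept their direction, and PDGFC, PDGFRA and KDR kept their calls under 9, 8 and 8 of them. With the replicate block, 1 of the 9 genes was higher and 4 were lower, 17 and 26 related genes were higher and lower, and 4562 and 4342 of all genes; apart from VEGFC it changed no call among the 9. Student's t-test called 0 higher and 1 lower of the 9, 3 and 2 related genes, and 544 and 502 of all genes. With library size only, 5473 of all genes were higher and 2326 lower, so that the share of higher calls went from 50.9% to 70.2%. Leaving out each library in turn gave 0 to 1 higher and 1 to 4 lower of the 9 genes, 12 to 15 higher and 17 to 19 lower related genes, and 2279 to 3169 higher and 2139 to 3004 lower of all genes. The log2 fold changes that changed sign were not called under any alternative: PDGFA was between -0.07 and 0.15 without each library in turn (-0.02 without LGR5-high 95R), VEGFA was 0.11 with library size only and between -0.25 and 0.01 without each library (0.01 without LGR5-negative 88R), VEGFB was 0.05 with library size only, and FLT4 was between -0.91 and 0.03 without each library (0.03 without LGR5-negative 95R). The cause of these changes was not tested. Depth limits PDGFRA, KDR, VEGFC, PDGFRB and FLT1, with at most 106 counts in any library.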
